A study of Mus musculus with 9 samples.

Results

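The genes described here encode the proteins of the cytosolic ribosome. They were taken by symbol, as the genes named Rpl or Rps with a number and the P stalk genes Rplp0 to Rplp2, without the Rps6 kinases and without pseudogene symbols, and each was read from its brightest probe set that lists 1 gene symbol. By this rule 49 of the 18193 genes on the array were members. They comprised 22 proteins of the large subunit, 20 of the small subunit, 6 paralogs of such proteins and Rps19bp1, which the symbol pattern takes but which encodes a protein that binds Rps19 and is not part of the ribosome.

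The series compared 3 freshly sorted cell types of the mouse: the conventional dendritic cell (CDC), the natural killer cell (NK) and the interferon-producing killer dendritic cell (IKDC). All came from naive BALB/c animals aged 6 to 8 weeks, and the labels name no treatment, deletion or transgene in any group. Each was represented by 2 Affymetrix arrays from spleen and 1 from lymph node, 9 arrays in all, hybridised with cRNA made from 6 µg of total RNA. The surface markers used for the sort, the number of animals and any pooling are not given in the labels, so the p-values measure the spread between these arrays, which may be technical. CDC present antigen to T cells, NK kill infected or transformed cells, and IKDC were named for a mixture of both kinds of feature.

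The ribosome is built from a small subunit, which reads the messenger RNA, and a large subunit, which forms the peptide bond, and each subunit is a folded ribosomal RNA covered by proteins. Most of these proteins are single-copy, are made in equal amounts and are assembled with the ribosomal RNA in the nucleolus. Their messengers are among the most abundant of a cell and start with a run of pyrimidines (the TOP motif), through which mTORC1 and the RNA-binding protein Larp1 adjust their translation, so that their protein output can move without a change in the messenger. Some members have a closely related paralog or a named role outside the ribosome, which is given with each below.

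The defining markers set CDC apart from NK and IKDC, but they did not all part NK from IKDC. The natural killer receptor gene Ncr1 lay between 5.06 and 6.22 on the 3 CDC arrays, between 11.62 and 12.18 on the 3 NK arrays and between 10.97 and 11.55 on the 3 IKDC arrays, in log2 units of normalized intensity. Flt3, the dendritic cell growth factor receptor, lay between 10.85 and 11.25 in CDC, between 5.22 and 5.77 in NK and between 5.75 and 8.69 in IKDC. Itgax, of the conventional dendritic cell list, lay between 11.40 and 12.37 in CDC and between 10.88 and 11.24 in IKDC. It lay at 11.32 on spleen NK array 1, and at 7.27 and 8.19 on spleen NK array 2 and lymph node NK. Of the marker lists, 8 of 9 conventional dendritic cell genes and 5 of 9 macrophage and monocyte genes were higher on every CDC array than on any other, and 9 of 9 NK genes were lower there. Genes of the plasmacytoid dendritic cell set the lymph node IKDC array apart, with 7 of the 8 tested higher there than on any other array. Siglech, a surface receptor of that cell, lay at 10.78 on it and between 4.79 and 6.51 on the other 8 arrays, and the summed log2 level of the list was 13.79 against 9.78 to 11.76 elsewhere, with Ly6d below the filter level. The median intensity of an array ran from 23.4 to 41.3, the highest intensity from 5998 on spleen IKDC array 2 to 16216 on spleen CDC array 2, and the number of arrays limits the precision of everything below.

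The members were among the brightest probe sets of these cells. Of the 49, 34 had a mean normalized log2 level of at least 11 over the 9 arrays, and 33 lay above the 98th percentile of all genes. Rps18, a protein of the head of the small subunit, was the highest gene on 7 of the 9 arrays. Of the 50 brightest probe sets on an array, 22 to 35 listed a ribosomal protein gene. The members made up 4.10%, 4.08% and 4.90% of the summed gene intensity in spleen CDC 1, spleen CDC 2 and lymph node CDC. They made up 4.08%, 3.65% and 3.70% in the corresponding NK arrays and 3.90%, 2.43% and 3.13% in the IKDC arrays. The lowest share was on spleen IKDC array 2, the array with the lowest maximum intensity. Brightness depends on the probes as well as on the messenger, so these ranks are not an order of messenger amounts.

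The bright members varied little. Their range over the 9 arrays had a median of 0.51 on the log2 scale, against 0.97 for the 486 tested genes that were at least as bright and 1.42 for all 10916 tested genes. Rps29, a small subunit protein, lay between 13.16 and 13.27 on the 9 arrays, and Rps3, which also repairs DNA, between 12.92 and 13.07. Rpl7 lay between 12.62 and 12.82 and Rps2 between 12.76 and 12.93. Quantile normalization gives the brightest probe set of every array the same value of 13.42, which limits the differences that can appear at the top of the scale. The 11 tested members below a level of 11 had a median range of 2.05, and their median replicate SD was 0.63, against 0.19 for the bright members and 0.33 for all tested genes. All differences of 2-fold or more reported below for the cell types came from probe sets below a level of 11.

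**Figure D1:**
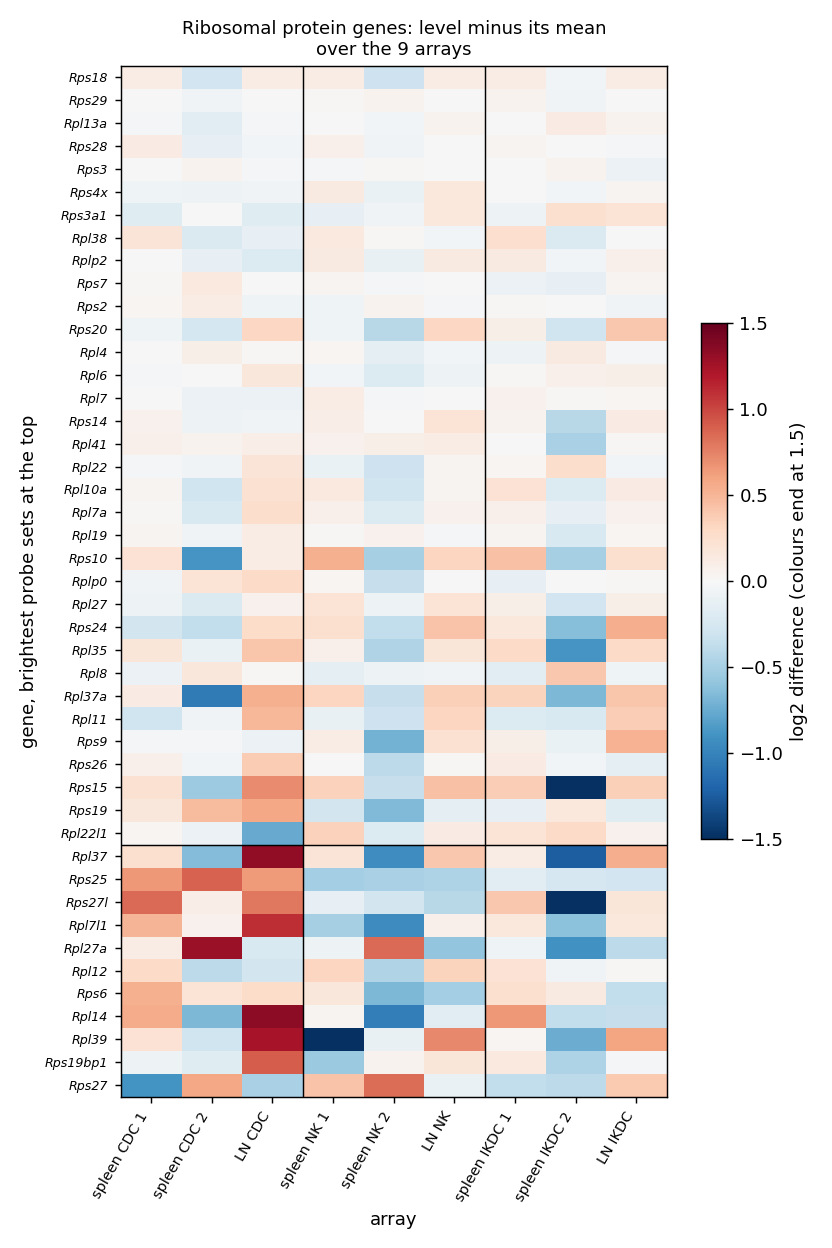
Log2 level of each of the 45 tested members on each array minus that member's mean over the 9 arrays, with the brightest probe sets at the top and the horizontal line at a mean level of 11. Above the line most cells are pale, and the deeper colours lie in the 11 members below it and in columns of spleen arrays 2.

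Of the 49 members, 45 passed the filter on dim genes, a mean log2 level of 5.31, and could be tested. The other 4 were not tested. Rpl39l, a paralog of Rpl39 known from the testis, lay between 4.23 and 5.51 on the 9 arrays, and Rpl3l, a paralog of Rpl3 known from striated muscle, between 3.24 and 5.01. Rps4l, which RefSeq annotates as a transcribed pseudogene and which stayed a member because its symbol is of the regular form, lay between 3.29 and 6.09. The single-symbol probe set of Rps16 had a mean of 2.93, near background on all 9 arrays. A further 31 ribosomal protein genes, Rpl3, Rpl5, Rpl10, Rpl13, Rpl23 and Rps12 among them, were listed only on probe sets that name other genes too. They were not members, and no level is given for any of them.

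The first question was whether the 3 cell types differ in these genes. Between spleen NK and spleen CDC the median difference of the 45 tested members was -0.02, against 0.06 for all tested genes, and 1 member was called at an adjusted p under 0.05, with 0 higher and 1 lower in NK. In the same comparison 13.5% of all tested genes were called, 6.54% higher and 6.97% lower in NK. Between spleen IKDC and spleen CDC the median was 0.02 against 0.04 for all genes, and 1 member was called, again lower, against 10.3% of all genes in either direction, 4.75% higher and 5.6% lower in IKDC. Between spleen IKDC and spleen NK the median was 0.03 against -0.01, and limma called 0 members, with 0.0% of all genes called. At an unadjusted p under 0.05 the members numbered 3, 1 and 0 in these comparisons, and 26.0%, 23.5% and 5.48% of all genes passed. A difference of at least 2-fold was reached by 2, 2 and 1 members, against 21.7%, 20.5% and 5.42% of all tested genes. The medians with IKDC depended on the scaling. With the values as deposited the member median was -0.49 for IKDC against CDC and -0.36 for IKDC against NK, and with a shift to the same 75th percentile it was -0.52 and -0.42, while all genes stayed between -0.07 and 0.03. The spleen IKDC arrays parted under these scalings. With the values as deposited, IKDC array 2, the dimmest array, gave -0.85 against the CDC mean and -0.83 against the NK mean, and IKDC array 1 alone gave -0.09 and 0.02. For NK against CDC the medians under these scalings were -0.11 and -0.08.

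The member called in both comparisons with CDC was Rps25, a small subunit protein known for its part in initiation at internal ribosome entry sites. Its log2 level was 10.82 and 11.06 in spleen CDC and 10.82 in lymph node CDC. It was 9.67 and 9.68 in spleen NK and 9.71 in lymph node NK, and 10.002, 9.92 and 9.89 in the corresponding IKDC arrays. Every CDC array lay above every NK and IKDC array, and the IKDC arrays lay just above the NK arrays. In spleen, NK fell below CDC by 1.27 ± 0.22 (SE, n = 2 arrays a group), a 2.41-fold difference with an adjusted p of 0.0123 by limma. IKDC fell below CDC by 0.98 ± 0.22 (SE, n = 2), 1.97-fold, with an adjusted p of 0.0384 by limma. IKDC minus NK was 0.29 ± 0.22, with an adjusted p of 0.867 by limma. Within arrays 1 and within arrays 2 of the spleen, NK minus CDC was -1.15 and -1.38. In the lymph node, with 1 array a group and no test of its own, NK minus CDC was -1.11 and IKDC minus CDC was -0.93.

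Both Rps25 calls rest on few arrays. Leaving out any spleen CDC or spleen NK array ended the NK call, with adjusted p from 0.0585 to 0.110 by limma, while the difference stayed between -1.39 and -1.15. The IKDC call was lost on leaving out each of the 6 spleen arrays in turn, with adjusted p from 0.0555 to 0.253. In bulk samples such as these, fewer cells with the messenger and less of it per cell cannot be told apart. A second, brighter probe set lists Rps25 beside 2 further symbols and did not follow the first. It lay at 11.85, 12.03 and 11.89 in the CDC arrays, at 11.62, 12.11 and 11.55 in the NK arrays and at 11.68, 10.73 and 11.46 in the IKDC arrays. NK minus CDC in spleen was -0.07 on that probe set and IKDC minus CDC was -0.74, the latter with the lowest value on spleen IKDC array 2. The summed log2 level of the macrophage and monocyte list was 13.60 to 14.48 in CDC against 9.55 to 12.83 in NK and IKDC. Marco, C1qc and Mertk lay below the filter level. Of the 9 tested genes of the list, 5 had every CDC array on top and 0 had every CDC array lowest. The list was mixed in spleen. C1qa lay at 4.88 and 4.86 in spleen CDC and at 6.16 and 7.34 in spleen IKDC. C1qb lay at 5.77 and 6.00 in spleen CDC and at 7.28 and 7.42 in spleen IKDC. The part of these genes in the Rps25 difference was not tested.

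The bases around the start site of the members that the cell type comparison turns on are shown here because TOP messengers are defined by the first bases after it. Each line gives 60 bases before and 20 after the start of the RefSeq gene on GRCm38.p6, on the gene's strand. Capitals mark the longest run of pyrimidines, or the first of equally long runs, as in Rpl41. Rps25 lies on the plus strand at chr9:44407654-44407733, Rps19 on the plus strand at chr7:24884532-24884611, Rpl7l1 on the minus strand at chr17:46782637-46782716 and Rpl41 on the minus strand at chr10:128549149-128549228.
Rps25: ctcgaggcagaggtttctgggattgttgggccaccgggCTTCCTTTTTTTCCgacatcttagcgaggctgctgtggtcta
Rps19: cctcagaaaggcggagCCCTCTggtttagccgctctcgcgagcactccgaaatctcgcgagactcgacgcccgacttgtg
Rpl7l1: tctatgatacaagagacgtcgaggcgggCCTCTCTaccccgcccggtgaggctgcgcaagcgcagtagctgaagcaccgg
Rpl41: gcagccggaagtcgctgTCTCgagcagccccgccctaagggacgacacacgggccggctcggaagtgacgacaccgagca
The run of Rps25 is 14 bases long and begins 22 bases before the annotated start, and those of Rps19, Rpl7l1 and Rpl41 are 6, 7 and 4 bases. RefSeq promoters were matched for 43 of the 49 members, with 51 start sites. A pyrimidine run of 8 or more within these 80 bases occurred in 28 of the 51 (54.9%), against 31.2% of all 32851 promoters. Most of this window lies before the annotated start, so this is not a count of TOP motifs. In the 300 bases from 250 before to 50 after the start, and on either strand, the ETS core CCGGAAG occurred in 20 of 51 (39.2%) against 8.86% of all promoters. The YY1 core AAGATGG occurred in 8 (15.7%) against 6.34%, the E-box CACGTG in 5 (9.80%) against 7.15%, and the TATA box letters TATAAA in 6 (11.8%) against 13.6%. These matches describe letters in a window and not bound sites.

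Rps19, a small subunit protein whose loss causes Diamond-Blackfan anaemia, was the other member with all CDC arrays on top. It lay at 11.60, 11.92 and 12.02 in spleen CDC 1, spleen CDC 2 and lymph node CDC, at 11.16, 10.78 and 11.31 in the NK arrays and at 11.31, 11.60 and 11.25 in the IKDC arrays. The lowest CDC and the highest IKDC array differed in the third decimal only, so the groups barely parted. NK minus CDC in spleen was -0.79 ± 0.24 (SE, n = 2), with an adjusted p of 0.0881 by limma, which missed the threshold. With the replicate number as a block the adjusted p was 0.0472, in a fit that called 21.2% of all genes, and it was 0.0214 in a model that adds an organ and a cell type effect over all 9 arrays, which called 22.0% of all genes. IKDC minus CDC was -0.30 ± 0.24, adjusted p 0.531 by limma. Of the 45 tested members, these 2 had all 3 CDC arrays above all 6 others, a share of 4.44% against 11.2% of all tested genes. This count depends on the scaling. It was 8 with the values as deposited (17.8%, against 10.7% of all genes) and 6 with the 75th percentile shift (13.3%, against 11% of all genes), with Rpl4, Rpl6, Rpl8 and Rps7 added to Rps19 and Rps25 in both. Without spleen CDC array 2 it was 5, but leaving out an array makes the order easier to meet for every gene. No share of all genes is given for that reading, so it does not show a rise. None had all CDC arrays below the others, against 12.7% of all genes. Of the 103 probe sets above the filter level that list a ribosomal protein gene beside other symbols, 2 (1.94%) had the CDC arrays on top and 1 (0.971%) had them lowest, against 9.98% and 10.9% of all probe sets above that level.

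Among the paralogs, Rpl7l1, a relative of Rpl7 that takes part in assembly of the large subunit, had 3 probe sets with differences in 1 direction. Its brightest lay at 9.36 and 8.91 in spleen CDC, at 8.35 and 7.90 in spleen NK and at 9.01 and 8.23 in spleen IKDC. The lymph node arrays lay at 9.96 in CDC, 8.93 in NK and 9.01 in IKDC. Within each organ and within each replicate number NK lay below CDC, with differences of -1.02 in arrays 1, -1.01 in arrays 2 and -1.03 in the lymph node. The difference of -1.01 ± 0.36 (SE, n = 2) had an adjusted p of 0.133 by limma without the block, 0.0193 with it and 0.0254 in the additive model. Its other probe sets gave -1.25, with an adjusted p of 0.0260 by limma, and -0.72, with 0.171. Rpl7 itself, on a bright probe set, gave 0.08 for NK minus CDC.

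Rps27l, a p53-inducible relative of Rps27, lay at 10.43 and 9.68 in spleen CDC, 9.45 and 9.31 in spleen NK and 9.98 and 8.07 in spleen IKDC, with 10.37, 9.16 and 9.76 in the lymph node. The spleen IKDC arrays differed from each other by 1.91, more than any 2 of the spleen means did. IKDC minus CDC was -1.03 ± 0.61 (SE, n = 2), adjusted p 0.390 by limma, and without spleen IKDC array 1 it became -1.98 with an adjusted p of 0.0195. Rps27 lay at 6.15 and 7.64 in spleen CDC, 7.49 and 7.89 in spleen NK and 6.68 and 6.67 in spleen IKDC, with 6.57, 6.95 and 7.45 in the lymph node. Its largest difference, IKDC minus NK at -1.01 ± 0.50, had an adjusted p of 0.857 by limma. Rpl22, which is needed for T cell development, and its paralog Rpl22l1 gave -0.16 and 0.10 for NK minus CDC. Rpl22l1 stood at 10.49 in lymph node CDC and between 11.03 and 11.58 on the other 8 arrays, and lymph node minus spleen CDC was -0.72 ± 0.30, adjusted p 0.395 by limma.

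**Figure D2:**
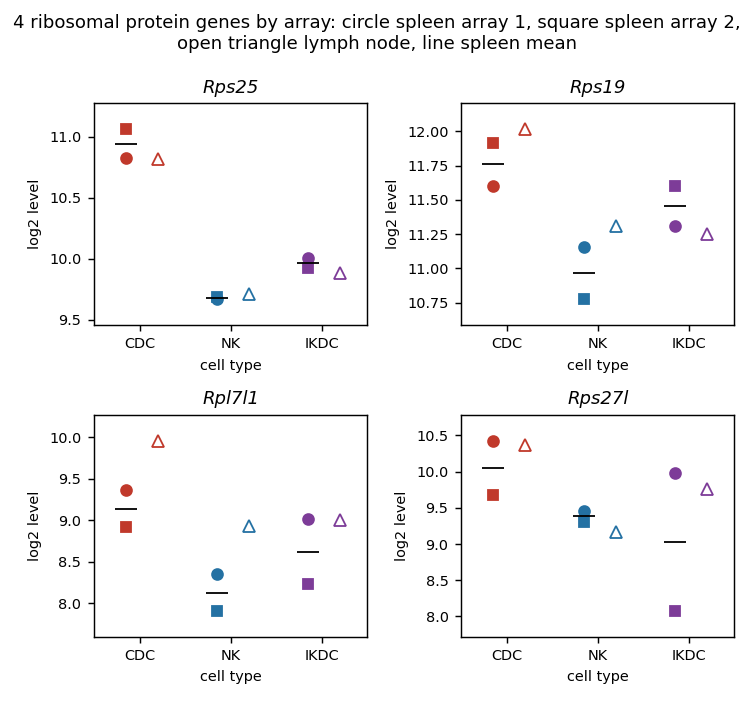
Normalized log2 levels of Rps25, Rps19, Rpl7l1 and Rps27l by cell type, with spleen array 1 as a circle, spleen array 2 as a square, the lymph node array as an open triangle and the spleen mean as a line. The 3 CDC points of Rps25 lie at 10.82 or above and all other points at 10.002 or below, while the spleen IKDC points of Rps27l lie at 9.98 and 8.07.

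Members with named roles elsewhere showed no called difference between cell types. Rplp0 and Rplp2, the base and an arm of the P stalk that recruits elongation factors, gave -0.24 and 0.07 for NK minus CDC. Rps6, the target of the S6 kinases, gave -0.62 ± 0.35 (adjusted p 0.337 by limma). Rpl11, which with Rpl5 and the 5S RNA binds Mdm2, gave -0.03, and Rpl13a, part of an interferon-gamma-activated repressor of translation, gave 0.07. Rpl38, which is needed for translation of Hox messengers, gave 0.10, and Rps14, which is lost in the 5q- syndrome, gave 0.05. Rps4x, encoded on the X chromosome, gave 0.08. In IKDC against CDC the same 8 genes lay between -0.18 and 0.16. The widest gap there was that of Rpl27a, at -1.18 ± 0.53 (SE, n = 2), adjusted p 0.249 by limma. Rpl27a lay at 8.82 and 10.01 in spleen CDC, 8.64 and 9.56 in spleen NK and 8.65 and 7.81 in spleen IKDC, so replicates differed by about as much as the cell types.

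The result for a gene depended on which probe set was read. The 49 members had 104 single-symbol probe sets, and 23 members had more than 1. In the NK and CDC comparison 90 probe sets passed the filter, 20 genes had several of them, and in 9 of these 20 all probe sets had the same sign. Read 1 probe set at a time, 4 of the 90 were called. The 13.5% given above counts genes, each read from its brightest probe set, and is not a share of probe sets. They were those of Rps25, 1 of Rpl7l1 and 2 of Rpl41, the smallest and most basic protein of the ribosome.

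Rpl41 shows the extent of the disagreement. Its brightest probe set had a mean level of 12.67 and lay at 12.75 and 12.72 in spleen CDC and at 12.73 and 12.75 in spleen NK, a difference of 0.01 ± 0.21. Its dimmest, with a mean of 8.94, lay at 9.54 and 9.74 in spleen CDC, 8.20 and 7.84 in spleen NK and 8.28 and 8.61 in spleen IKDC. On that probe set the lymph node arrays lay at 9.27 in CDC, 9.76 in NK and 9.18 in IKDC. In spleen NK it fell below CDC by 1.62 ± 0.27 (SE, n = 2; adjusted p 0.0110 by limma), and in spleen IKDC by 1.20 ± 0.27 (adjusted p 0.0405 by limma), but lymph node NK lay above lymph node CDC. A probe set with a mean of 10.13 gave -1.74 ± 0.30 for NK minus CDC in spleen (adjusted p 0.0124 by limma) and one with a mean of 11.57 gave -0.16 ± 0.41. Rpl22 had the same order, with -1.09 ± 0.38 on its probe set of mean 8.67 (adjusted p 0.122 by limma), -0.25 at 11.81 and -0.16 at 12.60. The 4 called probe sets all had means below 11.

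**Figure D3:**
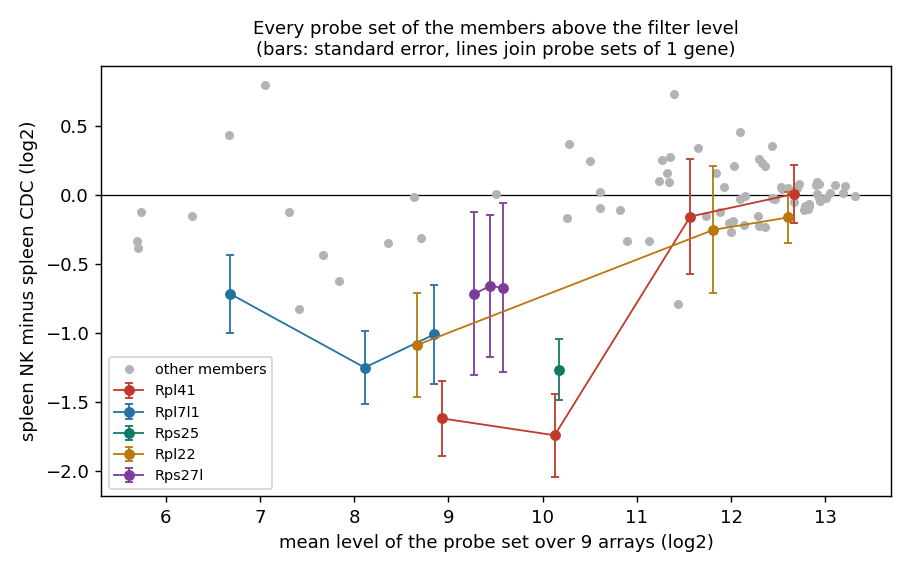
Difference between spleen NK and spleen CDC (log2) against the mean level of the probe set over 9 arrays, for the 90 probe sets of the members above the filter level, with probe sets of 5 genes joined by lines and shown with their standard error. The 2 dimmer probe sets of Rpl41 lie at -1.62 and -1.74 and its 2 brighter ones at -0.16 and 0.01.

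The next comparison was between organs. No member was called between lymph node and spleen in CDC, NK or IKDC by limma, with 1 lymph node array assumed to vary like the spleen arrays. Of all genes, 0.0275% were called in CDC and 0.0% in NK and in IKDC. With the replicate number as a block these shares were 1.13%, 0.128% and 1.83%, and again no member was called, with a smallest adjusted p of 0.130 by limma. The lymph node arrays carry no number in the labels, and that fit counts them with number 1. At an unadjusted p under 0.05 the members numbered 2, 0 and 1, and 12.7%, 5.75% and 6.82% of all genes passed. The median difference of the 45 members was 0.12 in CDC, 0.14 in NK and 0.09 in IKDC, against -0.02, -0.05 and 0.01 for all tested genes. With the values as deposited the medians were 0.15, -0.19 and -0.09, so in NK and IKDC the direction depends on the scaling. A test of whether the cell type differences themselves differ between organs called 0 members in each of 3 contrasts, and 0.0% of all genes.

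In 6 of the 45 tested members (13.3%) all 3 lymph node arrays lay above all 6 spleen arrays, against 3.44% of all tested genes, and in 0 they lay below, against 3.25%. These were the large subunit genes Rpl11, Rpl37, Rpl37a and Rpl39 and the small subunit genes Rps20 and Rps24. The count depends on the scaling, since with the values as deposited or shifted to the same 75th percentile only Rpl39 kept this order, against 4.18% and 2.73% of all genes. Among the 103 probe sets with further symbols, 27 (26.2%) had the lymph node arrays on top, against 4.16% of all probe sets above that level, and 2 (1.94%) had them lowest, against 3.66%. All counts over these 103 probe sets used quantile normalized values and were not repeated under the other scalings. More than 1 of these probe sets can list the same gene. Without the lymph node IKDC array the same 6 members and Rpl41, Rps15 and Rps19bp1 had both remaining lymph node arrays on top, 9 of 45 against 5.19% of all genes, and 0 had them lowest, against 5.55%. Of the 103 probe sets 37 (35.9%) then had them on top, against 6.85%, and 2 had them lowest, against 5.77%. In that reading, chosen after seeing the data, the values as deposited gave 3 members (6.67%, against 5.83% of all genes). The 75th percentile shift gave 2 (4.44%, against 4.12% of all genes), so under both scalings the share was near that of all genes. The order of the 6 members is that of their brightest probe sets. On a dimmer one of Rpl37a, lymph node NK and IKDC lay at 10.69 and 10.41 and spleen NK 1 at 10.87. On one of Rps24, lymph node CDC and NK lay at 11.43 and 11.47 and spleen NK 1 at 11.59. Some further probe sets of Rps20 and Rps24 kept the order. A dim one of Rps24 did not, with lymph node CDC at 5.27, the lowest array, and spleen IKDC 2 at 6.24, the highest. Nor did a dim one of Rpl37a, with lymph node CDC and IKDC at 6.02 and 5.80 and spleen CDC 2 at 6.86. Of 20 genes with several probe sets, all had the same sign in 9 in CDC, 11 in NK and 8 in IKDC.

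The 3' to 5' ratio of Gapdh, a measure of RNA integrity and of labelling, moved with the organ. It was 3.23, 2.7001 and 2.86 in lymph node CDC, NK and IKDC and 3.28 to 6.15 on the 6 spleen arrays, so every lymph node array lay below every spleen array. The same ratio of beta-actin did not move with the organ. It was 1.56, 1.39 and 1.89 in lymph node CDC, NK and IKDC, within the 1.11 to 3.23 of the spleen arrays. The part of either ratio in the organ differences was not tested, nor was that of the plasmacytoid dendritic cell genes on the lymph node IKDC array.

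Of the 6 members with all lymph node arrays on top, Rpl11 had the least spread within the spleen. It lay at 11.80, 12.04, 11.99, 11.78, 11.90 and 11.87 in spleen CDC 1 and 2, NK 1 and 2 and IKDC 1 and 2, and at 12.60, 12.42 and 12.47 in lymph node CDC, NK and IKDC. The lymph node arrays stood apart by more than the whole range of the spleen arrays. In the additive model the lymph node minus spleen difference was 0.60 ± 0.12 (SE; 9 arrays), with an adjusted p of 0.0655 by limma, where 0.806% of all genes were called. Rps20, a protein of the head of the small subunit, lay between 12.41 and 12.90 in spleen and between 13.14 and 13.23 in lymph node, with 0.52 and an adjusted p of 0.110. Rpl39, which lines the exit tunnel of the large subunit, lay between 5.77 and 7.63 in spleen and between 8.01 and 8.65 in lymph node, with 1.28 and an adjusted p of 0.128. Rps24, another Diamond-Blackfan gene, lay between 11.65 and 12.54 in spleen and between 12.57 and 12.84 in lymph node (0.63, adjusted p 0.172). Rpl37, a zinc-binding protein of the large subunit, lay between 9.02 and 10.50 in spleen and between 10.66 and 11.59 in lymph node (1.14, adjusted p 0.174). Rpl37a, another zinc-binding protein, lay between 11.04 and 12.43 in spleen and between 12.46 and 12.64 in lymph node, and in NK and IKDC the lymph node array was above spleen array 1 by only 0.04 and 0.09. Without the lymph node IKDC array the additive model gave 0.61 ± 0.16 for Rpl11, with an adjusted p of 0.224 by limma, and 0.0824% of all genes were called.

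**Figure D4:**
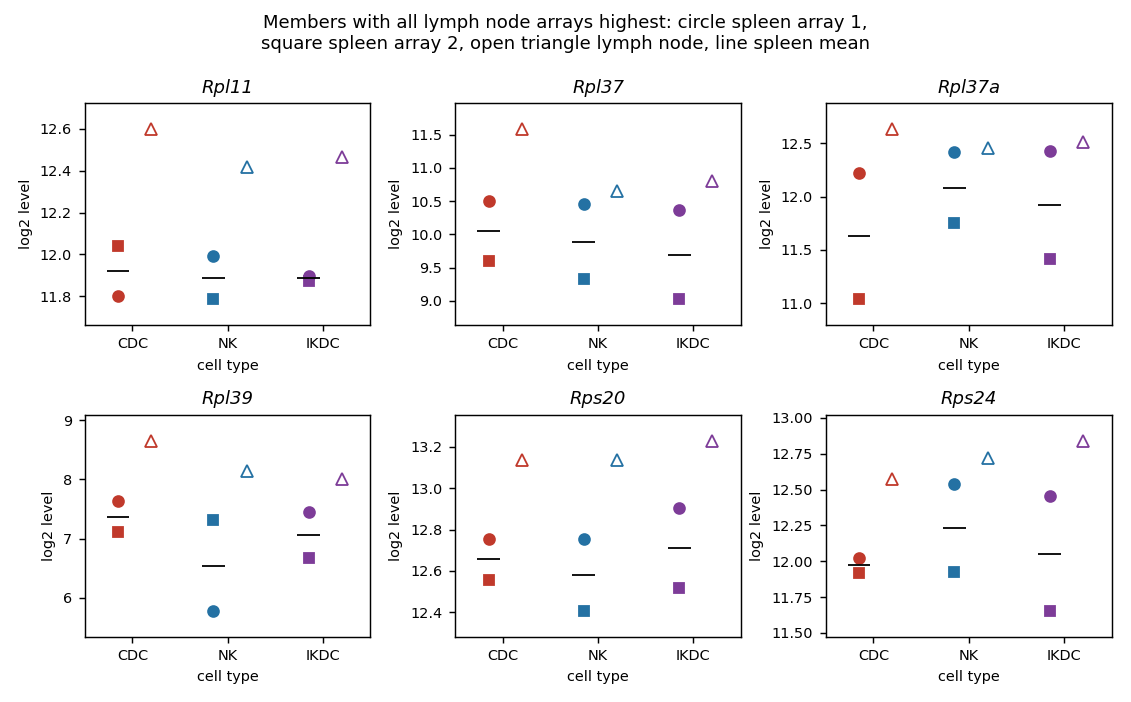
Normalized log2 levels of the 6 members whose 3 lymph node arrays (open triangles) lie above all 6 spleen arrays (circle, array 1; square, array 2; line, spleen mean), by cell type. For Rpl11 the triangles lie at 12.42 to 12.60 and the spleen points at 11.78 to 12.04, while for Rpl37a the triangles of NK and IKDC lie just above the circles.

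The bases around the start of these genes are shown for Rpl11, with the clearest separation, and for Rps24, whose pyrimidine run spans the start. The same 80-base window, strand rule and capitals apply. Rpl11 lies on the minus strand at chr4:136053374-136053453 and Rps24 on the plus strand at chr14:24490618-24490697.
Rpl11: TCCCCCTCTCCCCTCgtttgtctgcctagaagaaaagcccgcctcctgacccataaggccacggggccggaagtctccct
Rps24: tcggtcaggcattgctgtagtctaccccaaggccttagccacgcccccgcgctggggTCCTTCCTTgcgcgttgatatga
The run of Rpl11 is 15 bases long and opens the window 60 bases before the annotated start, whereas that of Rps24 is 9 bases long and begins 3 bases before it. Within the 300-base window CCGGAAG was found for Rpl11 and not for this start of Rps24, which has 2 listed promoters.

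The comparison between organs also depended on which spleen array was used. Against spleen array 1 alone the median of lymph node minus spleen over the 45 members was 0.02 in CDC, 0.02 in NK and -0.01 in IKDC. Against spleen array 2 alone it was 0.11, 0.26 and 0.17. These values are no tests, and both settings were chosen after seeing the data.

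The clearest order among the members was that between the replicate numbers of the spleen arrays. The labels number the spleen arrays 1 and 2 in each cell type without saying what the number marks. In 18 of the 45 tested members (40%) all 3 arrays numbered 1 lay above all 3 arrays numbered 2, against 9.54% of all tested genes, and in 3 (Rpl8, Rps3 and Rps3a1) they lay below, against 8.1%. With the values as deposited or shifted to the same 75th percentile the first count was 16, against 9.3% and 10.6% of all genes, and in none did arrays 1 lie below. Of the 103 probe sets that list other symbols too, 42 (40.8%) had this order, against 8.86% of all probe sets, and 4 (3.88%) had the opposite one, against 8.92%. By cell type, 31, 33 and 35 of the 45 members were higher on array 1 in CDC, NK and IKDC, with median differences of 0.11, 0.21 and 0.17, against 0.03, -0.02 and -0.03 for all tested genes.

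Some members differed between the replicate arrays by more than the spleen means of the cell types did. Rps10, a small subunit protein, lay at 12.65, 12.96 and 12.88 on spleen arrays 1 of CDC, NK and IKDC and at 11.55, 11.93 and 11.94 on arrays 2, while its lymph node arrays lay at 12.54, 12.76 and 12.67. Every array 1 and every lymph node array was above every array 2. Rps15, a protein of the head of the small subunit, lay at 12.06, 12.18 and 12.20 on arrays 1 and at 11.29, 11.49 and 10.29 on arrays 2, with the lowest value on IKDC array 2 and 12.55, 12.27 and 12.19 in lymph node. Rpl14, a large subunit protein, lay at 8.22, 7.70 and 8.31 on arrays 1 and at 6.99, 6.63 and 7.29 on arrays 2. In the lymph node Rpl14 lay at 9.01 in CDC, 7.51 in NK and 7.32 in IKDC, so there CDC stood above both by more than the numbers differ in spleen. The mean difference between numbers was 1.02 for Rps10, 1.12 for Rps15 and 1.11 for Rpl14, and it was 1.12 for Rpl37 and 0.95 for Rpl37a, which are among the members with high lymph node arrays.

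Other measures moved with the replicate number. Of 18 tested dividing-cell markers, 17 were higher on every spleen array 1 than on any array 2, and the summed log2 level of the list was 14.16 to 14.99 on arrays 1, 13.12 to 13.42 on arrays 2 and 12.82 to 13.38 in lymph node. Mki67 lay at 10.97, 11.06 and 11.91 on arrays 1 and at 9.35, 8.71 and 9.06 on arrays 2. The ratio of the 3' to the 5' probe set of the spiked control BioC was 0.771 to 0.810 on arrays 1, 1.13 to 1.22 on arrays 2 and 0.830 to 0.852 in lymph node. That of beta-actin was 1.69, 2.35 and 3.23 on arrays 1 of CDC, NK and IKDC and 1.11, 1.62 and 1.24 on arrays 2. That of Gapdh was 4.47, 6.15 and 3.67 on arrays 1 and 3.28, 4.12 and 4.19 on arrays 2, so the numbers overlapped and IKDC went the other way. The lymph node arrays thus lay with spleen arrays 1 in the BioC ratio and overlapped spleen arrays 2 in the summed dividing-cell markers. The part of any of these measures in the ribosomal protein differences was not tested.

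**Figure D5:**
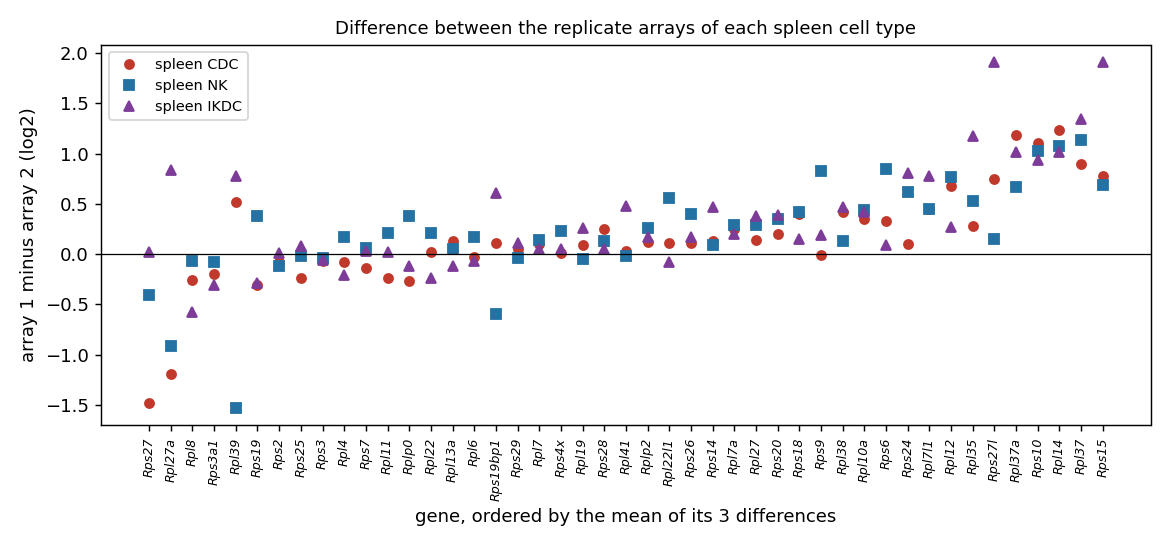
Log2 level on spleen array 1 minus that on spleen array 2 for each of the 45 tested members, in CDC (circles), NK (squares) and IKDC (triangles), ordered by the mean of the 3 differences. Most points lie above 0, and Rps10, Rpl14, Rpl37 and Rps15 at the right have all 3 differences at 0.69 or above.

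Other genes of the translation machinery were read from lists, for NK and IKDC against CDC in spleen and with limma's adjusted p. For every list below, the share of all tested genes called was 13.5% in NK and 10.3% in IKDC. The median of all tested genes was 0.06 in NK and 0.04 in IKDC. Of 76 tested mitochondrial ribosomal protein genes, 1 was higher and 1 lower in NK, with a median of -0.16. Mrpl9, of the large mitochondrial subunit, rose 2.52-fold in NK (log2 difference 1.33 ± 0.28, adjusted p 0.0266) and 2.26-fold in IKDC (1.18 ± 0.28, adjusted p 0.0498). Mrps27, of the small mitochondrial subunit, was 2.91-fold lower in NK (adjusted p 0.0261). Of 25 elongation factor and other TOP messenger genes 0 were called, with medians of -0.04 in NK and -0.01 in IKDC. Of 26 initiation factors, Eif4a1, the helicase of the cap-binding complex, was 1.73-fold lower in NK (adjusted p 0.0493).

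Of 49 ribosome assembly and RNA polymerase I genes, 3 were lower and 1 higher in NK than in CDC, and 0 were called in IKDC against CDC. Nop16, a nucleolar protein of large subunit assembly, was 3.21-fold lower (log2 difference -1.68 ± 0.31, adjusted p 0.0159). Pes1, of the same assembly pathway, was 2.31-fold lower (adjusted p 0.0345), and Polr1a, the largest subunit of RNA polymerase I, 2.12-fold lower (adjusted p 0.0381). Taf1c, a subunit of the selectivity factor of that polymerase, was 2.03-fold higher (adjusted p 0.0458). The median of this list was -0.19 in NK against CDC, 0.16 in IKDC against CDC and 0.39 in IKDC against NK. In IKDC against NK 0 of the 49 were called, and for all tested genes the median was -0.01 and 0.0% were called.

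Of 26 mTORC1 and Myc control genes, Mxd4, an antagonist of Myc, was 2.10-fold higher in NK than in CDC (adjusted p 0.0474). In IKDC against CDC, Myc was 2.94-fold higher (log2 difference 1.56 ± 0.36, adjusted p 0.0428), and Eif4ebp1, the repressor of cap-dependent initiation that mTORC1 inactivates, was 3.04-fold lower (-1.60 ± 0.35, adjusted p 0.0366). Deptor, an inhibitor of mTOR, was at least 4.60-fold lower (adjusted p 0.0445), taken against the filter level because its IKDC mean of 4.96 lay below it. Of 4 tested Rps6 kinase genes, Rps6kc1 was at least 3.79-fold lower in NK than in CDC (adjusted p 0.0165), with an NK mean of 4.17. Of the ribosomal protein genes outside the symbol pattern, 2 were tested and 0 called. All 13 calls in these lists were lost on leaving out at least 3 of the 6 spleen arrays in turn. Among the other settings, the Mrpl9 call in IKDC was kept in 2 of 14, that of Eif4a1 in 6 of 14 and that of Deptor in 7 of 12. The 3 of 26 mTORC1 and Myc genes called in IKDC lie near the 10.3% of all genes called there, and the 4 of 49 assembly genes called in NK lie below the 13.5%.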

How the data were processed

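Values were the signal intensities per probe set that the authors deposited for 9 arrays, 1 colour, already scaled. Which software made them was not given in the sources used here. An offset of 6.49, the 20th percentile of all values, was added, and the log2 values were quantile normalized. The 64 control probe sets were left out, and the 40th percentile of the gene means was the filter. Gene names came from the platform annotation, updated through RefSeq, and 34945 probe sets carried 1 symbol.

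Tests used limma 3.58.1 in R 4.3.3 (lmFit, eBayes with a trend) over 6 groups with 3 residual degrees of freedom, two-sided, with Benjamini-Hochberg adjustment over all 10916 tested genes and a threshold of 0.05. The fit was tested on simulated data. Tables used Python 3.11.15 and pandas 2.3.3. Members named were those called, the 4 largest differences in each direction of each comparison and genes with fixed roles. Up to 4 called genes of each context list were named too. Rpl4, Rpl6, Rpl8, Rpl41, Rps2, Rps3a1, Rps7, Rps18 and Rps29 fall outside this rule and were chosen after their values were seen. Rps16 also falls outside it and was named as an untested member. Members and lists were chosen with earlier results of these data known.

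Arrays of the same number deviated alike, with r across genes of 0.412 between CDC and NK, 0.529 between CDC and IKDC, and 0.485 between IKDC and NK, so a fit with the number as a block is given where it changes a call. The pairing comes from the data, as the labels do not say what a number marks. Promoter sequences came from RefSeq on GRCm38.p6.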

Additional observations from a re-analysis of the deposited data

How the results depend on the processing

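The 2 counts of called members moved with the settings. For spleen NK against CDC, the mean of probe sets gave 3 called (Rpl41, Rpl7l1 and Rps25), and leaving out probe sets ending in _x_at or _s_at gave 2. Of all genes these settings called 1425 and 1450, against 1475 in the main fit. For IKDC against CDC leaving out those probe sets gave 2, with 1113 of all genes called, against 1129 in the main fit. Centring on the members, no filter and eBayes without a trend each gave 0 there, with 900, 972 and 1053 of all genes called. Leaving out each spleen array in turn gave 0 to 1 in both comparisons. In the paired analysis, the replicate block gave 3 called members for NK against CDC (Rpl7l1, Rps19 and Rps25), as did the additive model, and it changed no other call of a member. Of all genes, the block called 2318 against 1475 for NK and CDC and 1883 against 1129 for IKDC and CDC. Between organs it called 123 against 3 genes in CDC, 14 against 0 in NK and 200 against 0 in IKDC, with 0 members among them.

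Member medians depended on the scaling. With the values as deposited and with a shift to the same 75th percentile, IKDC against CDC became -0.49 and -0.52, IKDC against NK became -0.36 and -0.42, and lymph node against spleen became -0.19 and -0.32 in NK. The shift gave -0.21 for lymph node against spleen in IKDC. The medians of all genes lay between -0.15 and 0.08. Centring on the members, which gave -0.12 in lymph node CDC, makes their median level equal on every array by construction and so says nothing on direction. Rps25, the member called in the main fit, kept its sign in every setting. Rpl41, called in 2 of 15 other settings for NK against CDC, ran from -1.62 to 0.02 over them. The counts of members without the lymph node IKDC array, and those with CDC on top under other scalings, were added after seeing the data. The arrays number 9, and dim probe sets and lone lymph node arrays limit what could be called.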
